A study of Arabidopsis thaliana with 24 samples.

Results

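The genes described here are 9 Arabidopsis thaliana genes of sugar transport and starch metabolism, among 33245 gene identifiers in the count tables. They are GPT2 (AT1G61800), APL3 (AT4G39210), CT-BMY (AT4G17090), BAM1 (AT3G23920), BAM5 (AT4G15210), SWEET10 (AT5G50790), SWEET11 (AT3G48740), SWEET12 (AT5G23660) and STP13 (AT5G26340). They were picked by locus, with no threshold, and all 9 passed the filter on low counts. They were proposed with results of these data known, and the contrast that drew attention to each gene is not recorded. SWEET10 had stood among the largest differences in ATP response between bdg-8 and Col-0, so its values in bdg-8 and Col-0 with and without ATP are a description with no p. The adjusted p-values of the other genes place them among the 20995 genes tested and are not independent support.

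Messenger RNA was sequenced from whole seedlings of 4 genotypes: the single mutants p2k1-3 and bdg-8, the double mutant p2k1-3 bdg-8, and Col-0, the wild type. Each genotype was given 150 µM ATP for 30 min or a mock treatment, with 3 replicate libraries in each of the 8 groups. P2K1 encodes a receptor kinase for extracellular ATP, which damaged cells release, and BDG1 encodes an epidermal hydrolase needed for an intact cuticle. The comparisons ask how loss of either gene alters transcript levels and the response to ATP. The sources used here give no seedling age, growth medium or content of the mock treatment.

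Leaves store part of their daily carbon as starch in plastids and turn it into maltose and glucose at night. ADP-glucose pyrophosphorylase makes the precursor of starch, and beta-amylases release maltose from it. Sucrose leaves the cells through SWEET exporters for loading into the phloem, and STP symporters bring hexoses from the cell wall space back into cells. Several of these genes, GPT2 and APL3 among them, are widely used as sugar-induced transcripts in Arabidopsis.

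Libraries held 25856588 to 35239775 counts in genes, and levels are given as CPM, counts scaled to library size after TMM normalization. P2K1 transcript averaged 12.1 ± 0.927 CPM in p2k1-3 mock and 10.6 ± 0.478 CPM in the double mutant mock, against 21.4 ± 0.821 CPM in Col-0 mock (SD, n = 3). BDG1 transcript averaged 14.2 ± 1.77 CPM in bdg-8 mock and 15.3 ± 0.471 CPM in the double mutant mock, against 25.4 ± 0.451 CPM in Col-0 mock. With ATP it stood at 107 ± 9.87 CPM in bdg-8 and 112 ± 2.28 CPM in the double mutant. In p2k1-3 and Col-0 with ATP it stood at 24.7 ± 0.716 and 26.0 ± 1.76 CPM. Both mutants therefore kept transcript of the mutated gene, and where along the gene those reads lay cannot be read from gene counts. Within the groups, the level in replicate 3 was between those of replicates 1 and 2 for 41.0 to 53.5% of genes, more often than replicate 1 (22.6 to 28.9%) or replicate 2 (24 to 30.1%). Whether replicate 3 is an independent library was not tested, so calls of the 9 genes and counts over gene lists are also given for replicates 1 and 2 alone. The labels do not state whether replicates were grown as separate cultures, so the spread behind each p-value may be technical.

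Per kilobase of exon, the 9 genes spanned a wide range in Col-0 mock. SWEET11, a sucrose exporter of the phloem parenchyma, was the most abundant at 63.6 CPM per kb, followed by the plastid glucose 6-phosphate translocator GPT2 at 34.2, the chloroplast beta-amylase CT-BMY (also BAM3) at 32.7 and APL3, a large subunit of ADP-glucose pyrophosphorylase, at 22.7. BAM1, a chloroplast beta-amylase known from guard cells and stress, stood at 16.9 CPM per kb, the sucrose exporter SWEET12 at 13.6 and the hexose symporter STP13 at 8.68. BAM5, a beta-amylase outside the plastid, had 1.60 CPM per kb and the exporter SWEET10 had 0.759. SWEET10 rested on 25 to 148 counts per library and the others on at least 83. Over the 8 group means, the highest level was 8.77 times the lowest for GPT2, 5.55 times for BAM5, 4.71 times for SWEET10 and 3.07 times for APL3. For SWEET11 and SWEET12 that ratio was 1.22 and 1.28, the least of the 9.

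**Figure D1:**
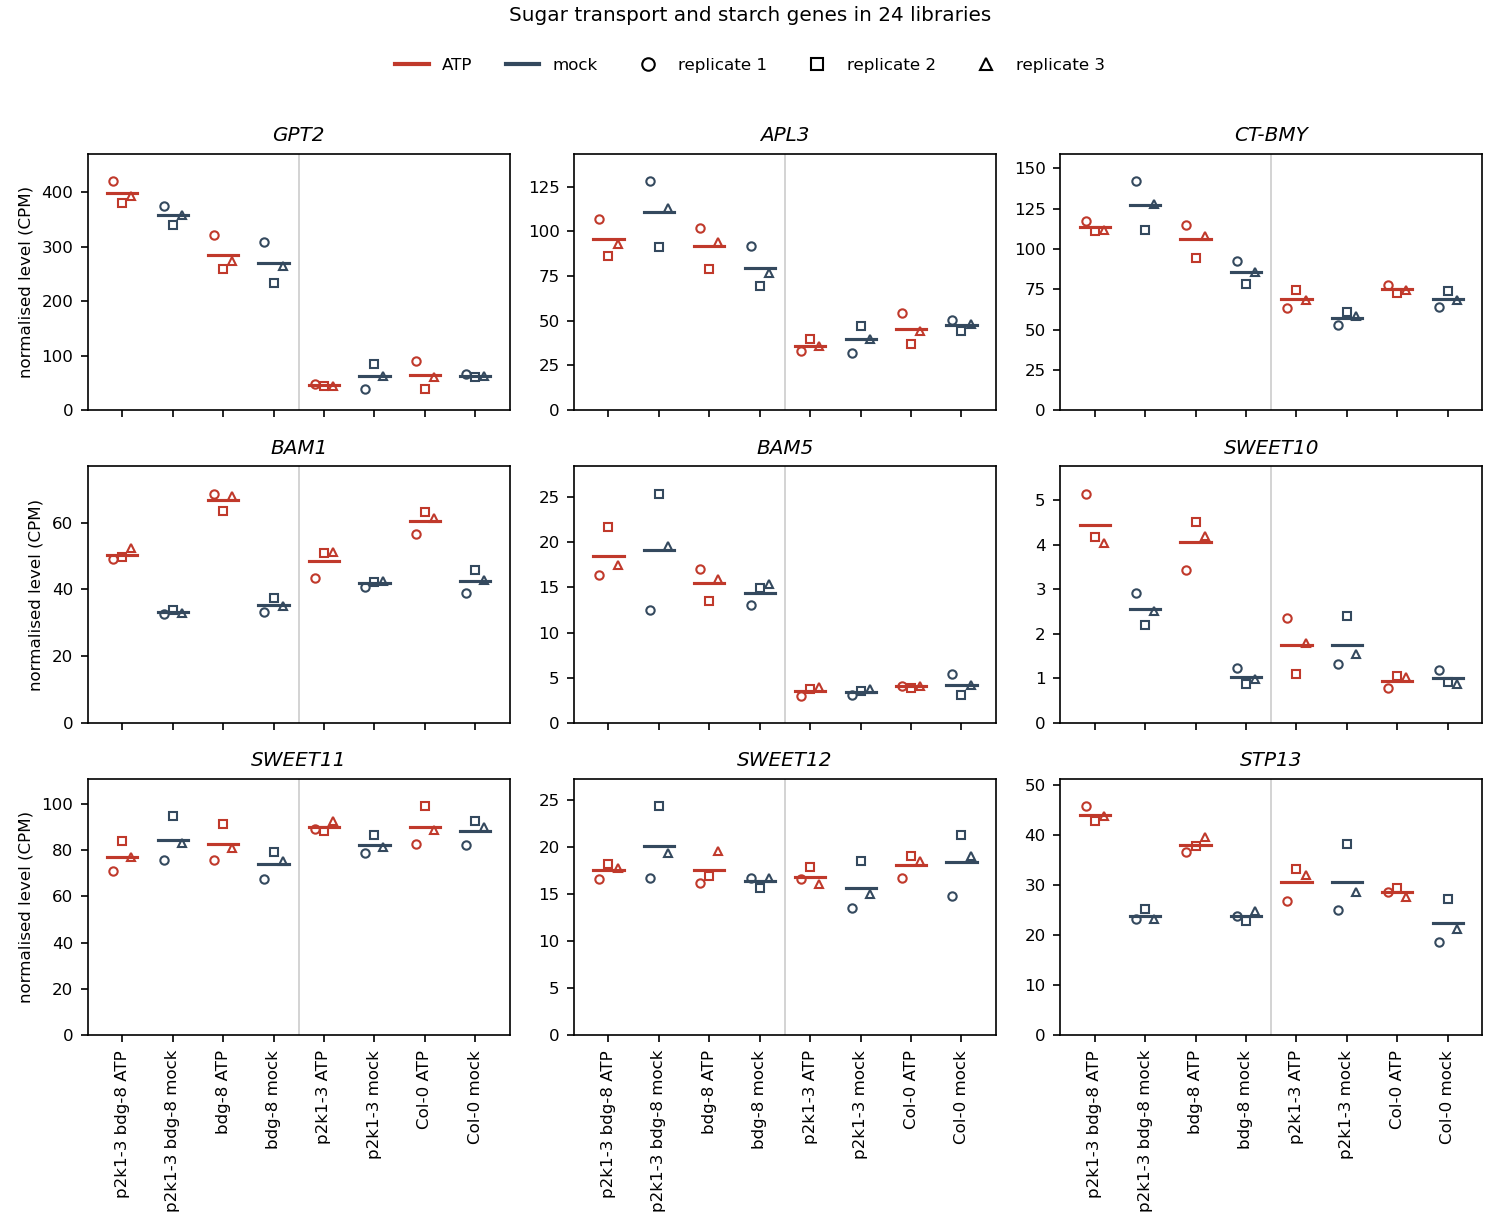
CPM of the 9 genes in each of the 24 libraries, 1 panel per gene; every panel has its own axis from 0, points are libraries, and short lines are the means of 3 libraries. GPT2, APL3, CT-BMY and BAM5 are higher in all 12 libraries that carry bdg-8 than in the 12 others, as are 3.44% of all genes tested. BAM1, SWEET10, SWEET11, SWEET12 and STP13 overlap between these sets of libraries.

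The 250 bases before the gene start are shown for some of the genes. They are 4 that stood higher in every library carrying bdg-8 (GPT2, APL3, CT-BMY and BAM5), BAM1 and SWEET10. BAM1 was called higher with ATP in every genotype, and SWEET10 stood higher with ATP in bdg-8 and the double mutant. STP13, called higher with ATP in bdg-8, the double mutant and Col-0, is not shown. The sequences were read by locus from RefSeq's TAIR10.1 assembly and annotation, 5′ to 3′ on the strand of the gene. The regions are chr1:22824164-22824413 (plus strand) for GPT2, chr4:18259297-18259546 (plus) for APL3, chr4:9607403-9607652 (minus) for CT-BMY and chr4:8669527-8669776 (minus) for BAM5. BAM1 lies at chr3:8640931-8641180 (plus) and SWEET10 at chr5:20658002-20658251 (minus). None of them overlaps another annotated gene. Capitals mark the cores TTGAC (the start of a W-box, on the other strand GTCAA) and ACGTG (part of a G-box or abscisic acid response element).
GPT2: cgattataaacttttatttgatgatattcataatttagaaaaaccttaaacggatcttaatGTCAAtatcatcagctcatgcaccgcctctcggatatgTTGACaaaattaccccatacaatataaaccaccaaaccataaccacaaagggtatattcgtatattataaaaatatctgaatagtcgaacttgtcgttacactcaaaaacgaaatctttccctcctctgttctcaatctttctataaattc
APL3: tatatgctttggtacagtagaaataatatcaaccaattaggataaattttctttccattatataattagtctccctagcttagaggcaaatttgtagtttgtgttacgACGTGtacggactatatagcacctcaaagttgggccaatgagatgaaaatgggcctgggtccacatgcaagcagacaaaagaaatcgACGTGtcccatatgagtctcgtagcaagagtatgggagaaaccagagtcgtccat
CT-BMY: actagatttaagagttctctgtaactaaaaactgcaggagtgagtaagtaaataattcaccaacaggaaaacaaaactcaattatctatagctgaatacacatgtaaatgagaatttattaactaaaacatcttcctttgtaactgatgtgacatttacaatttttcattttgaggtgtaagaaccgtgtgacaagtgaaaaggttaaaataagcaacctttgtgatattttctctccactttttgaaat
BAM5: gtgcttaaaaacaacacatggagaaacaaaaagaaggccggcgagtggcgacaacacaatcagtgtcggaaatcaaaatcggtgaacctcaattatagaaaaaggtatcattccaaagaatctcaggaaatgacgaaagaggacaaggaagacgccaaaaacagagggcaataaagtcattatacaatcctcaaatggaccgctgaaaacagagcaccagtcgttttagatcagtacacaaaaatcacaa
BAM1: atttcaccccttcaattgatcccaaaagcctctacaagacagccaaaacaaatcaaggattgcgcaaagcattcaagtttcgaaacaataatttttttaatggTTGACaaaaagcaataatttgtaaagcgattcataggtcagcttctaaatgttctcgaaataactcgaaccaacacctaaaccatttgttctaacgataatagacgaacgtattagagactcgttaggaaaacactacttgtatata
SWEET10: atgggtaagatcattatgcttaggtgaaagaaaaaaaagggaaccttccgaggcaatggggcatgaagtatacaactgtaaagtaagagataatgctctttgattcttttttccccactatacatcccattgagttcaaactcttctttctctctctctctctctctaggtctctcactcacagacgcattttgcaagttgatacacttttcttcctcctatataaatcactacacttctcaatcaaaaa

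The motifs were counted in the promoters of the 9 genes and set beside their share of all promoters. The counts describe 9 sequences and were not tested. On both strands, the W-box (TTGACC or TTGACT), the G-box (CACGTG) and the rapid stress response element (CGCGTT) were in 0 of the 9 promoters; they occur in 28.4%, 6.49% and 2.59% of 27443 promoters of this length. The shorter cores, searched after that result was seen and contained in the longer motifs, gave TTGAC in 4 of 9 (2 matches in GPT2, 1 in BAM1, 2 in SWEET11 and 1 in SWEET12) and ACGTG in 1 of 9 (2 matches in APL3). TTGAC is in 44.9% of all promoters and ACGTG in 22.9%. The APL3 sequence above carries ACGTG at 2 places on the strand shown, and GPT2 carries TTGAC once on each strand.

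Without ATP, GPT2, BAM5, APL3 and CT-BMY were higher in bdg-8 than in Col-0. GPT2, which carries glucose 6-phosphate into plastids, was 4.27-fold higher, BAM5 3.39-fold, APL3 1.66-fold and CT-BMY 1.24-fold. BAM1, another chloroplast beta-amylase, and SWEET11 were lower, and SWEET12 and STP13 were not called. Among the 8 genes other than SWEET10, 4 were higher and 2 lower at an edgeR adjusted p under 0.05, where 36.5% of all genes tested were called (18.0% higher, 18.5% lower). Their median log2 difference was 0.21, against 0.0019 over all genes tested.

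GPT2 had 308, 234 and 265 CPM in bdg-8 mock, against 66.5, 60.5 and 61.9 CPM in Col-0 mock. The groups lie far apart, with the lowest bdg-8 library above the highest Col-0 library. The log2 difference was 2.09 ± 0.21 (SE; edgeR adjusted p = 9.3e-08). BAM5 had 13.0, 14.9 and 15.4 CPM in bdg-8 mock, against 5.37, 3.07 and 4.23 CPM in Col-0 mock, a log2 difference of 1.76 ± 0.20 (edgeR adjusted p = 6.5e-07). APL3, whose subunit is known for its induction by sugar, had 91.7, 69.3 and 76.8 CPM in bdg-8 mock, against 50.6, 44.5 and 47.9 CPM in Col-0 mock. Its libraries did not overlap either, and the log2 difference was 0.73 ± 0.14 (edgeR adjusted p = 0.00032). These 3 calls held with replicates 1 and 2 alone (edgeR adjusted p = 0.0027, 0.0046 and 0.044 in that order).

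The smaller differences were less secure. CT-BMY, the beta-amylase of nightly starch breakdown, had 92.7, 78.3 and 85.5 CPM in bdg-8 mock, against 64.1, 73.9 and 68.1 CPM in Col-0 mock. The log2 difference was 0.32 ± 0.08 (edgeR adjusted p = 0.0042) and missed the threshold with replicates 1 and 2 (0.13). BAM1 averaged 35.3 ± 2.11 CPM in bdg-8 mock, against 42.5 ± 3.4 CPM in Col-0 mock (SD, n = 3), a log2 difference of -0.27 ± 0.06 (edgeR adjusted p = 0.0019, or 0.082 with replicates 1 and 2). SWEET11 averaged 73.9 ± 5.86 CPM in bdg-8 mock, against 88.2 ± 5.36 CPM in Col-0 mock, a log2 difference of -0.25 ± 0.08 (edgeR adjusted p = 0.018, or 0.21 with replicates 1 and 2). The SWEET11 call was also lost without Col-0 mock replicate 2 (-0.21), Col-0 mock replicate 3 (-0.24) or bdg-8 mock replicate 1 (-0.19). For SWEET12 the 95% interval of the log2 difference ran from -0.43 to 0.10, and for STP13 from -0.16 to 0.35. SWEET12 was called lower without replicate 1 (-0.31, edgeR adjusted p = 0.03) and STP13 higher without replicate 2 (0.29, edgeR adjusted p = 0.013).

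The double mutant and p2k1-3, which share no library with bdg-8 and Col-0, gave a separate measure of the bdg-8 difference without ATP. Here 5 of 9 genes were higher and 2 lower, where 31.2% of all genes tested were called (15.1% higher, 16.1% lower); the median was 0.55 over the 9 genes and -0.0034 over all genes. GPT2 had 374, 340.2 and 358 CPM in the double mutant mock, against 39.4, 85.5 and 62.3 CPM in p2k1-3 mock. It was 5.74-fold higher, a log2 difference of 2.52 ± 0.21 (edgeR adjusted p = 7.3e-09). BAM5 had 12.5, 25.4 and 19.6 CPM in the double mutant mock, against 3.1, 3.5 and 3.78 CPM in p2k1-3 mock. The double mutant libraries spread over a wide range, all above p2k1-3, and the log2 difference was 2.46 ± 0.20 (edgeR adjusted p = 6.7e-09).

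APL3 and CT-BMY were higher in the double mutant as well. APL3 had 128, 91.2 and 113 CPM in the double mutant mock, against 31.9, 46.9 and 39.8 CPM in p2k1-3 mock, a log2 difference of 1.49 ± 0.14 (edgeR adjusted p = 6.3e-08). CT-BMY had 142, 112 and 128 CPM in the double mutant mock, against 52.7, 60.6 and 58.3 CPM in p2k1-3 mock, a log2 difference of 1.16 ± 0.08 (edgeR adjusted p = 6.8e-10). Whether the bdg-8 difference in APL3 or CT-BMY depends on the background was not tested. All 4 rises (GPT2, BAM5, APL3 and CT-BMY) held with replicates 1 and 2, with edgeR adjusted p between 0.00041 and 0.0027.

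The remaining calls in that background were small. BAM1 averaged 33.1 ± 0.66 CPM in the double mutant mock, against 41.8 ± 0.947 CPM in p2k1-3 mock, and fell by 0.33 ± 0.06 on the log2 scale (edgeR adjusted p = 0.00032, or 0.053 with replicates 1 and 2). STP13 averaged 23.9 ± 1.13 CPM in the double mutant mock, against 30.7 ± 6.8 CPM in p2k1-3 mock; the libraries overlapped, and it fell by 0.36 ± 0.12 (edgeR adjusted p = 0.02, or 0.18). The STP13 call was lost without p2k1-3 mock replicate 2 (-0.18), the double mutant mock replicate 1 (-0.34) or its replicate 3 (-0.34). SWEET12 was higher by 0.36 ± 0.12 (edgeR adjusted p = 0.029, or 0.25 with replicates 1 and 2), a call lost without p2k1-3 mock replicate 1 (0.26), its replicate 3 (0.33) or the double mutant mock replicate 2 (0.21). SWEET10 had a log2 difference of 0.55 ± 0.22, not called (edgeR adjusted p = 0.057), and was called without replicate 2 (0.91), p2k1-3 mock replicate 2 (0.82) or the double mutant mock replicate 2 (0.64).

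Over all 24 libraries, GPT2, APL3, CT-BMY and BAM5 separated the genotypes with no overlap. GPT2 ranged from 234 CPM through a median of 331 to 419.9 CPM in the 12 libraries carrying bdg-8, against 39.3, 61.1 and 90.1 CPM in the 12 others. BAM5 ranged from 12.5 through 16.2 to 25.4 CPM, against 2.98, 3.82 and 5.37 CPM. APL3 ranged from 69.3 through 92.4 to 128 CPM, against 31.9, 42.1 and 54.3 CPM. CT-BMY came closest to overlap, from 78.3 through 111 to 142 CPM, against 52.7, 68.2 and 77.9 CPM. Among all genes tested, 3.44% were higher in all 12 libraries carrying bdg-8 and 5.52% were lower in all 12. The order of the GPT2 group means was the double mutant with ATP (398 ± 20.2 CPM), the double mutant mock (358 ± 17.1), bdg-8 with ATP (284 ± 32.7), bdg-8 mock (269 ± 37.5), and then the 4 groups without bdg-8 at 45.4 to 63.7 CPM. Within bdg-8, and among the groups without bdg-8, neighbours in that order differed by less than their spread; the double mutant libraries with ATP all lay above those of its mock group, with the difference not called.

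Markers of green tissue were lower in the mock groups that carry bdg-8. For the marker counts below, the shares over all genes tested were 18.0% higher and 18.5% lower in bdg-8 against Col-0. They were 15.1% and 16.1% in the double mutant against p2k1-3. The summed level of 6 green tissue markers, among them the light-harvesting gene LHCB1.3 and the Rubisco gene RBCS1A, was 22890 to 30240 CPM in bdg-8 mock, against 34560 to 37380 CPM in Col-0 mock. It was 25140 to 28290 CPM in the double mutant mock, against 30270 to 34390 CPM in p2k1-3 mock. All 6 were called lower in bdg-8 against Col-0, and 4 of 6 in the double mutant against p2k1-3; with replicates 1 and 2, 3 and 1 of these calls held. Of 5 root hair markers, 2 were higher in both comparisons, with summed levels of 116 to 148.6 CPM in bdg-8 mock, against 94.97 to 121.6 CPM in Col-0 mock, and 0 of these edgeR calls held with replicates 1 and 2. Of 5 phloem markers, 2 were higher in both, at 440.7 to 485.2 CPM in bdg-8 mock, against 420.2 to 449.4 CPM in Col-0 mock, and 1 held in each comparison. None of these markers was at 0 in any group. Their part in the results was not tested, and in RNA from whole seedlings a change in the number of cells of a type and a change in RNA per cell cannot be told apart.

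**Figure D2:**
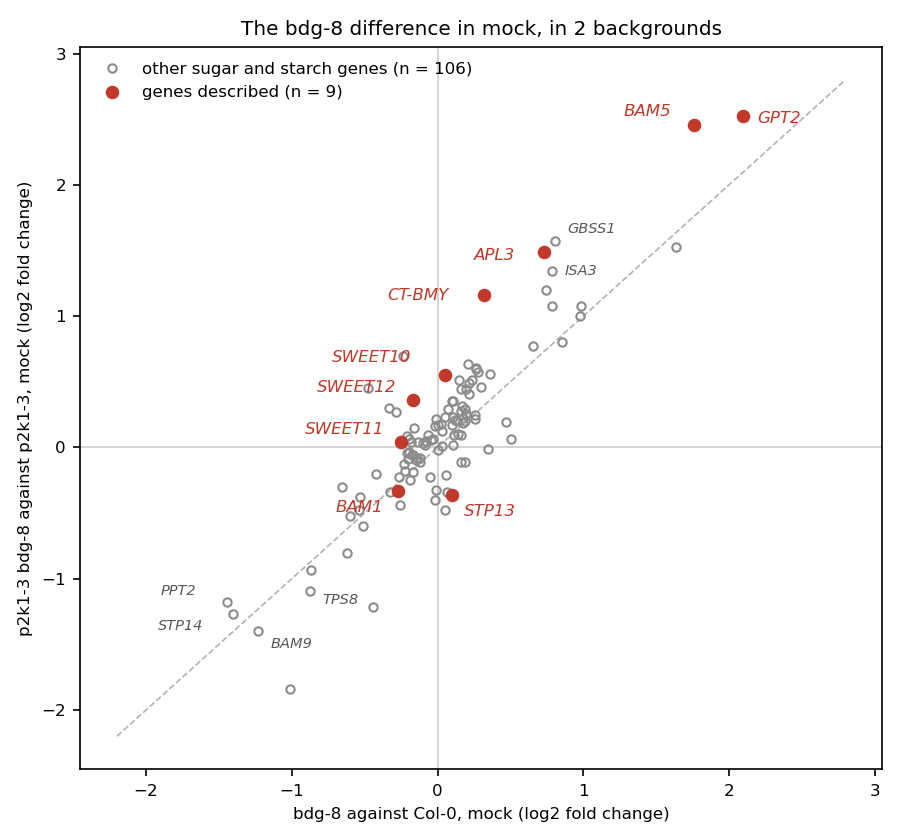
Log2 fold change of bdg-8 against Col-0 in mock (horizontal) and of the double mutant against p2k1-3 in mock (vertical), for the 9 genes (filled) and 106 other tested sugar and starch genes (open); the dashed line marks equal values. GPT2 (2.09 and 2.52) and BAM5 (1.76 and 2.46) lie farthest from 0 on the upper side, and BAM9, PPT2 and STP14 lie on the lower side on both axes.

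The 9 genes belong to a wider set of 132 genes, listed by function, of which 123 are described as their pathway and 106 passed the filter. In bdg-8 against Col-0 without ATP, 36 of these 106 were higher and 21 lower (53.8%, with 36.5% over all genes tested), and 33 were called with replicates 1 and 2. In the double mutant against p2k1-3, 39 were higher and 19 lower (54.7%, with 31.2% over all genes), and 41 were called with replicates 1 and 2. Of the genes called higher, 32 were shared, which is 88.9% of the bdg-8 list and 82.1% of the double mutant list. Of those called lower, 16 were shared, which is 76.2% and 84.2%. The shared part of all genes called in both comparisons was not counted, so these shares are not read as particular to sugar and starch genes.

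Starch genes made up much of the higher side. Over all genes tested, 18.0% were higher and 18.5% lower in bdg-8 against Col-0, and 15.1% and 16.1% in the double mutant against p2k1-3. Among 19 genes of starch synthesis, APL3 included, 10 were higher and 4 lower in bdg-8 against Col-0, and 11 were higher and 2 lower in the double mutant against p2k1-3. With replicates 1 and 2, 8 of the higher and 2 of the lower calls held in the first comparison, and 9 and 1 in the second. GBSS1, the granule-bound starch synthase that makes amylose, rose by 0.81 ± 0.15 (edgeR adjusted p = 0.00016) and 1.57 ± 0.15 (4.7e-08) on the log2 scale in those comparisons. APL4, another pyrophosphorylase large subunit, rose by 0.79 ± 0.09 and 1.08 ± 0.09, while the leaf subunit APL1 was lower in bdg-8, at -0.53 ± 0.08. Among 15 genes of starch breakdown other than beta-amylases, 7 and 10 were higher and none was lower in those 2 comparisons at an edgeR adjusted p under 0.05, of which 3 and 8 held with replicates 1 and 2. ISA3, a debranching enzyme, rose by 0.79 ± 0.07 and 1.35 ± 0.07, and SEX4, a phosphatase that removes phosphate from starch, rose by 0.74 ± 0.08 and 1.20 ± 0.08.

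The transporter families and the beta-amylases did not move as a block. Over all genes tested, 18.0% were higher and 18.5% lower in bdg-8 against Col-0. In the double mutant against p2k1-3 these shares were 15.1% and 16.1%. Of 9 beta-amylases, 3 were higher and 2 lower in bdg-8 against Col-0, and 2 were higher and 2 lower in the double mutant against p2k1-3. BAM9, a plastid beta-amylase protein without catalytic activity that is known as lowered by sugar, was lower by -1.23 ± 0.09 and -1.40 ± 0.09. Of 10 plastid envelope exchangers, 6 were higher in each comparison, with 2 and 1 lower; the phosphoenolpyruvate translocator PPT2 was lower by -1.45 ± 0.17 and -1.17 ± 0.18. Of 9 tested STP symporters, 2 and 1 were higher, 3 and 4 lower; STP14 was lower by -1.40 ± 0.15 and -1.27 ± 0.16 and STP1 by -0.62 ± 0.07 and -0.80 ± 0.07. Of 12 tested SWEET genes, 2 and 5 were higher, 3 and 2 lower; SWEET13, which lies beside SWEET10, rose by 0.99 ± 0.20 and 1.08 ± 0.21. With replicates 1 and 2, the higher and lower calls that held numbered 1 and 1 of the beta-amylases in bdg-8 against Col-0 and 2 and 1 in the double mutant against p2k1-3. They numbered 4 and 1 of the exchangers in both comparisons, 0 and 2 and then 0 and 3 of the STP genes in edgeR, and 1 and 1 and then 2 and 2 of the SWEET genes.

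Genes of sucrose cleavage and of sugar starvation were also measured. The sucrose synthase gene SUS1 rose by 0.85 ± 0.11 and 0.80 ± 0.10 (edgeR adjusted p = 1.9e-06 and 3.6e-06) in bdg-8 against Col-0 and the double mutant against p2k1-3. SUS4 rose by 1.64 ± 0.32 and 1.53 ± 0.32; in the double mutant against p2k1-3 it missed the threshold with replicates 1 and 2 (0.072). Of 7 genes known to be raised by sugar starvation, 5 were lower and none higher in each comparison at an edgeR adjusted p under 0.05. Over all genes tested, 18.5% and 16.1% were lower in those comparisons. The list holds TPS8, TPS9, TPS10, TPS11, DIN10, ASN1 and SEN1. TPS8, a class II trehalose phosphate synthase gene, was lower by -0.87 ± 0.07 and -1.10 ± 0.07, and DIN10 by -0.60 ± 0.07 and -0.52 ± 0.07. ASN1 had log2 values of 0.005 and -0.019, and SEN1 of -0.015 and -0.399. Of the 5 lower calls, 4 held in each comparison with replicates 1 and 2. Apart from SUS4, every gene named here for its bdg-8 difference was also called with replicates 1 and 2 in the comparisons for which its value is given, with edgeR adjusted p at most 0.034. The lower green tissue markers given above come from the same libraries, and their part in these differences was not tested.

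**Figure D3:**
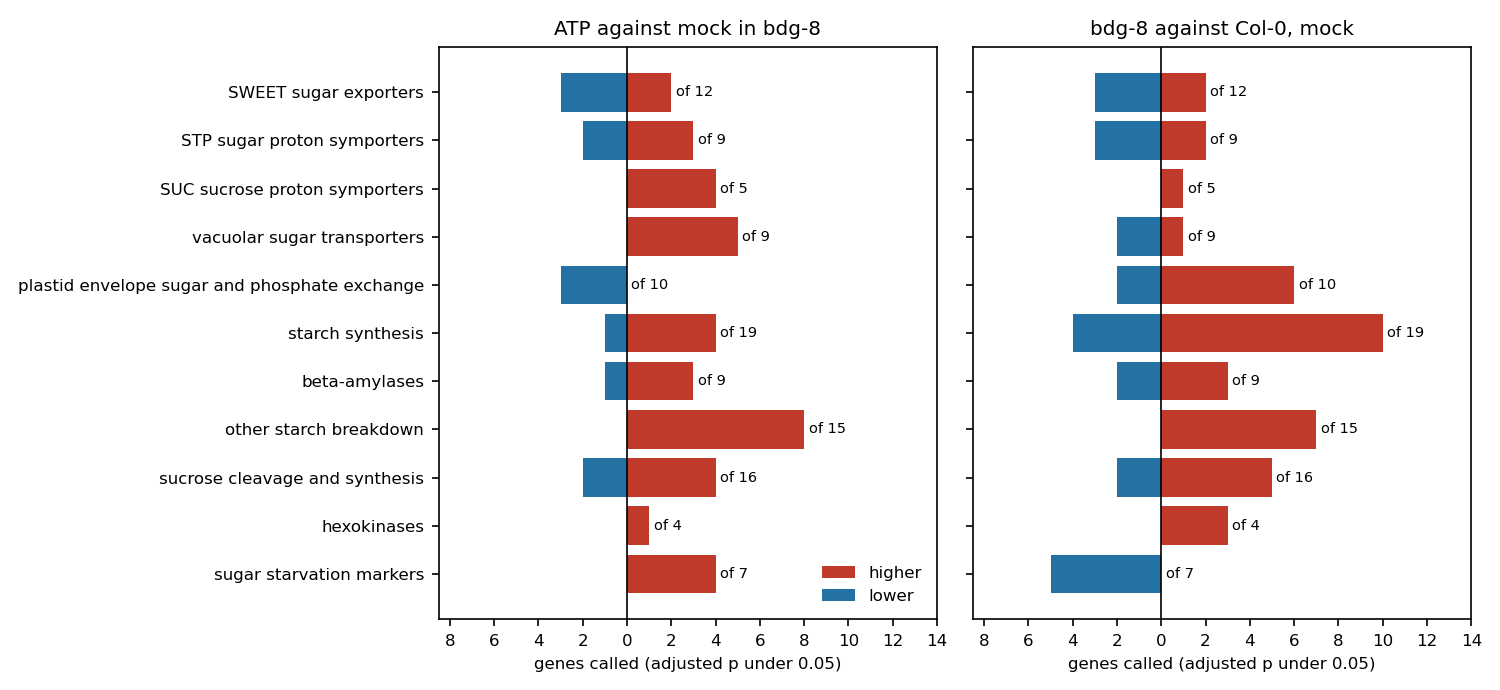
Numbers of tested genes called higher (right of 0) and lower (left of 0) in each of 11 lists of sugar and starch genes, for ATP against mock in bdg-8 (left panel) and bdg-8 against Col-0 in mock (right panel); the number beside each bar is that of genes tested. Starch synthesis has 10 and other starch breakdown 7 genes on the higher side in the right panel, and the sugar starvation markers are on the higher side with ATP (4 genes) and on the lower side in the right panel (5 genes).

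Without ATP, STP13 alone was called between p2k1-3 and Col-0. In p2k1-3 against Col-0, 1 of the 8 genes other than SWEET10 was called, higher, where 5.29% of all genes tested were called (3.41% higher, 1.89% lower); the median was -0.17 over the 8 genes and -0.003 over all genes. STP13 had 25.1, 38.3 and 28.7 CPM in p2k1-3 mock, against 18.7, 27.2 and 21.2 CPM in Col-0 mock. The libraries overlapped, and replicate 2 was the highest in both groups. The log2 difference was 0.46 ± 0.12 (edgeR adjusted p = 0.021), and the call was lost with replicates 1 and 2 (0.48), and without Col-0 mock replicate 1 (0.34), its replicate 3 (0.42) or p2k1-3 mock replicate 2 (0.27). SWEET10 had 1.32, 2.39 and 1.55 CPM in p2k1-3 mock, against 1.19, 0.925 and 0.878 CPM in Col-0 mock, a log2 difference of 0.80 ± 0.26. GPT2 differed by -0.02, with a 95% interval from -0.46 to 0.43. CT-BMY was called lower without replicate 1 (-0.26), without replicate 2 (-0.25) or by DESeq2 (-0.27), and APL3 without replicate 2 (-0.45).

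CT-BMY was higher in the double mutant than in bdg-8. In that comparison without ATP, 1 of the 8 genes other than SWEET10 was higher and none lower at an edgeR adjusted p under 0.05, where 0.667% of all genes tested were called (0.381% higher, 0.286% lower); the medians were 0.35 over the 8 genes and 0.0044 over all genes. CT-BMY had 142, 112 and 128 CPM in the double mutant mock, against 92.7, 78.3 and 85.5 CPM in bdg-8 mock, with no overlap. The log2 difference was 0.58 ± 0.08 (edgeR adjusted p = 0.00047). SWEET10 had 2.92, 2.2 and 2.52 CPM in the double mutant mock, against 1.23, 0.869 and 0.974 CPM in bdg-8 mock, a log2 difference of 1.31 ± 0.24. CT-BMY was not called with replicates 1 and 2 (edgeR adjusted p = 0.63). The SWEET10 value, a description, was 1.29 with replicates 1 and 2. It was 1.21 without bdg-8 mock replicate 2, 1.28 without its replicate 3 and 1.20 without the double mutant mock replicate 1. GPT2, APL3 and BAM5 had log2 values of 0.41 ± 0.19, 0.48 ± 0.14 and 0.41 ± 0.17, none of them called (edgeR adjusted p = 0.40, 0.12 and 0.32 in that order). APL3 was called without replicate 1 (0.49), replicate 2 (0.51) or the double mutant mock replicate 2 (0.60), and BAM5 without replicate 1 (0.57). Of the 106 pathway genes, 7 were higher and 1 lower, and none of them was called with replicates 1 and 2; they included the starch genes ISA3 (0.42 ± 0.07), DPE2 (0.25 ± 0.03) and PHS2 (0.27 ± 0.04).

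Treatment with ATP for 30 min raised BAM1 in all 4 genotypes, and raised STP13 in 3. GPT2, APL3 and BAM5, the genes with the largest bdg-8 differences without ATP, were called in none of the 4 genotypes with 3 replicates. Calls among the 8 genes other than SWEET10 numbered 2 higher in p2k1-3 (20.4% of all genes tested called, 11.9% higher and 8.53% lower), 3 in bdg-8 (36.3%, 18.7% higher and 17.7% lower), 2 in the double mutant (33.7%, 17.1% higher and 16.5% lower) and 2 in Col-0 (21.8%, 13.2% higher and 8.67% lower). No gene of the 9 was called lower. Their median log2 changes were 0.07, 0.18, -0.08 and 0.02 in that order, against medians over all genes between -0.023 and -0.011.

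BAM1 had 43.4, 50.9 and 51.3 CPM with ATP in p2k1-3, against 40.7, 42.1 and 42.5 CPM in its mock group. It had 68.7, 63.5 and 68.0 CPM with ATP in bdg-8, against 33.3, 37.5 and 35.1 CPM in its mock group. It had 49.2, 49.7 and 52.4 CPM with ATP in the double mutant, against 32.7, 33.9 and 32.9 CPM in its mock group. Every ATP library lay above every mock library of its genotype, in Col-0 as well, where BAM1 had 56.6, 63.2 and 61.3 CPM with ATP, against 39.0, 45.8 and 42.8 CPM in mock. The log2 responses were 0.22 ± 0.06 in p2k1-3 (edgeR adjusted p = 0.013), 0.92 ± 0.06 in bdg-8 (6.3e-12), 0.61 ± 0.06 in the double mutant (2.2e-08) and 0.50 ± 0.06 in Col-0 (4.4e-07). With replicates 1 and 2 alone, the calls held except in p2k1-3 (edgeR adjusted p = 0.30). The p2k1-3 call was also lost without its mock replicate 1 (0.20), its ATP replicate 2 (0.19) or its ATP replicate 3 (0.18).

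STP13, a symporter known to be raised in defence, had 36.7, 37.9 and 39.7 CPM with ATP in bdg-8, against 23.9, 22.9 and 24.8 CPM in its mock group. In the double mutant it had 45.8, 42.8 and 43.8 CPM with ATP, against 23.3, 25.2 and 23.2 CPM in mock. The groups were far apart in both genotypes, with log2 responses of 0.67 ± 0.11 (edgeR adjusted p = 3.7e-05) and 0.89 ± 0.11 (6e-07), and both calls held with replicates 1 and 2 (0.014 and 0.0025). In Col-0 it had 28.6, 29.4 and 27.7 CPM with ATP, against 18.7, 27.2 and 21.2 CPM in mock. That response of 0.35 ± 0.12 (edgeR adjusted p = 0.03) was lost with replicates 1 and 2 (0.32). It was also lost without Col-0 mock replicate 1 (0.24) or replicate 3 (0.32), and without Col-0 ATP replicate 1 (0.36), replicate 2 (0.33) or replicate 3 (0.38). In p2k1-3, STP13 had 26.9, 33.2 and 32.0 CPM with ATP, against 25.1, 38.3 and 28.7 CPM in mock, and the log2 value was 0.00 with a 95% interval from -0.24 to 0.24.

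SWEET10 stood higher with ATP in bdg-8 and in the double mutant. It had 3.44, 4.52 and 4.20 CPM with ATP in bdg-8, against 1.23, 0.869 and 0.974 CPM in its mock group, a log2 difference of 1.97 ± 0.23. It had 5.15, 4.18 and 4.03 CPM with ATP in the double mutant, against 2.92, 2.2 and 2.52 CPM in its mock group. The double mutant response was 0.80 ± 0.19 (edgeR adjusted p = 0.0019), and missed the threshold with replicates 1 and 2 (0.067). In Col-0, SWEET10 had 0.780, 1.04 and 1.02 CPM with ATP, against 1.19, 0.925 and 0.878 CPM in mock, a difference of -0.08 ± 0.29. In p2k1-3 it had 2.36, 1.09 and 1.79 CPM with ATP, against 1.32, 2.39 and 1.55 CPM in mock, a log2 value of 0.02 ± 0.23 that was not called. SWEET10 has close relatives, SWEET13 to SWEET15 among them, and reads with more than 1 alignment, 3.13 to 7.59% of each library, were not counted in genes.

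CT-BMY responded weakly. It had 63.5, 74.8 and 68.4 CPM with ATP in p2k1-3, against 52.7, 60.6 and 58.3 CPM in mock, and 115, 94.6 and 108 CPM with ATP in bdg-8, against 92.7, 78.3 and 85.5 CPM in mock. The rises were 0.27 ± 0.08 in p2k1-3 (edgeR adjusted p = 0.024) and 0.31 ± 0.08 in bdg-8 (0.004), and neither held with replicates 1 and 2 (0.26 and 0.14). The p2k1-3 call was also lost without its mock replicate 1 (0.21) or its ATP replicate 2 (0.21). In the double mutant CT-BMY had a log2 value of -0.18 ± 0.08 and in Col-0 of 0.13 ± 0.08, both not called (edgeR adjusted p = 0.098 and 0.32). It was called lower in the double mutant without replicate 2 (-0.24, edgeR adjusted p = 0.0048) or without its mock replicate 2 (-0.26, edgeR adjusted p = 0.016), and higher in Col-0 without replicate 2 (0.21, edgeR adjusted p = 0.03).

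GPT2 had 47.4, 44.4 and 44.5 CPM with ATP in p2k1-3, against 39.4, 85.5 and 62.3 CPM in mock, a log2 value of -0.45 ± 0.21 that was not called (edgeR adjusted p = 0.14). Its mock libraries spread widely, and without p2k1-3 mock replicate 1 it was called at -0.70 (edgeR adjusted p = 0.014), as it was without replicate 1 in every group (-0.73, edgeR adjusted p = 0.00048). In the other 3 genotypes the GPT2 response lay between 0.02 and 0.15 on the log2 scale. SWEET11 and SWEET12, the exporters for phloem loading, had responses between -0.19 and 0.16 in the 4 genotypes, and none was called with 3 replicates. SWEET12 was called lower in the double mutant without replicate 1 (-0.27, edgeR adjusted p = 0.049). SWEET11 had 75.8, 91.0 and 80.7 CPM with ATP in bdg-8, against 67.5, 79.0 and 75.3 CPM in mock, so the libraries overlapped.

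**Figure D4:**
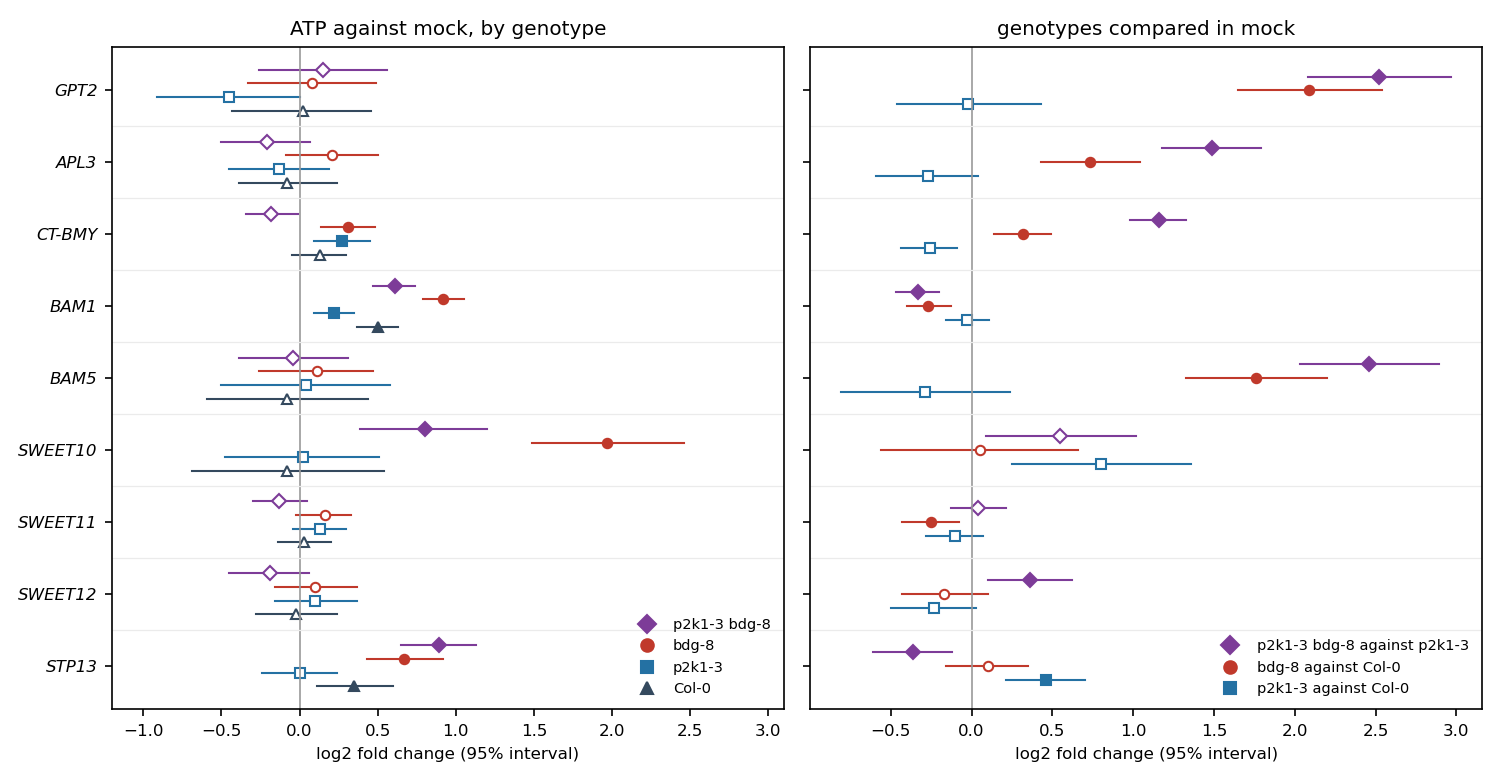
Log2 fold changes of the 9 genes with 95% intervals (bars), from the edgeR model with 3 libraries per group; filled points have an adjusted p under 0.05. In the ATP panel (left) BAM1 lies above 0 in every genotype, from 0.22 in p2k1-3 to 0.92 in bdg-8, and in the mock panel (right) GPT2 has 2.52 and 2.09 and BAM5 has 2.46 and 1.76 in the 2 comparisons for bdg-8; SWEET10 in bdg-8 and Col-0 is shown as a description.

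Differences between genotypes in the ATP response were tested as interactions. Between bdg-8 and Col-0, 1 of the 8 genes other than SWEET10 responded more in bdg-8, where 7.91% of all genes tested were called (5.76% higher, 2.15% lower); the median was 0.18 over the 8 genes and -0.00012 over all genes. BAM1 responded by 0.92 in bdg-8 and by 0.50 in Col-0, a difference of 0.41 ± 0.09 (edgeR adjusted p = 0.0025). For SWEET10 the difference was 2.05 ± 0.38, given without a p. With replicates 1 and 2, BAM1 differed by 0.40 and was not called (edgeR adjusted p = 0.19), and SWEET10 differed by 2.13. For STP13 the difference was 0.32 with a 95% interval from -0.03 to 0.66, and for GPT2 0.06 with an interval from -0.54 to 0.67.

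Between the double mutant and p2k1-3, 3 of 9 genes differed in ATP response, where 16.2% of all genes tested were called (9.85% higher, 6.38% lower); the median was -0.08 over the 9 genes and -0.0006 over all genes. STP13 responded by 0.89 in the double mutant and by 0.00 in p2k1-3, and differed by 0.89 ± 0.16 (edgeR adjusted p = 0.00024), which held with replicates 1 and 2 (0.039). BAM1 responded more in the double mutant by 0.39 ± 0.09 (edgeR adjusted p = 0.0027) and CT-BMY less, by -0.44 ± 0.12 (0.0086); neither held with replicates 1 and 2 (0.14 and 0.24). Of the genes not called here, GPT2 (0.61 ± 0.29) was called without replicate 1 (0.87) or p2k1-3 mock replicate 1 (0.85). SWEET10 (0.78 ± 0.30) was called without replicate 1 (1.20), p2k1-3 mock replicate 1 (0.94) or p2k1-3 ATP replicate 1 (1.05), and SWEET11 (-0.26 ± 0.12) without replicate 2 (-0.29).

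The 2 remaining interactions set mutants in P2K1 against their background. In p2k1-3 against Col-0, 0 of the 8 genes other than SWEET10 were called by edgeR or DESeq2, where edgeR called 4.48% of all genes tested (0.681% higher, 3.80% lower); 2 had an unadjusted edgeR p under 0.05. These were BAM1, at -0.29 ± 0.09 (edgeR adjusted p = 0.062), and STP13, at -0.35 ± 0.16 (0.28). The median was 0.02 over the 8 genes and -0.004 over all genes. BAM1 was called at -0.34 without Col-0 mock replicate 2 (edgeR adjusted p = 0.031) and at -0.33 without Col-0 ATP replicate 1 (0.035). In the double mutant against bdg-8, 1 of the 8 genes other than SWEET10 was called, CT-BMY, at -0.48 ± 0.11 (edgeR adjusted p = 0.048), where 0.638% of all genes tested were called (0.152% higher, 0.486% lower); the medians were -0.29 and -0.012. It missed the threshold without bdg-8 mock replicate 2 (-0.42) or 3 (-0.48), bdg-8 ATP replicate 1 (-0.42) or 3 (-0.47), the double mutant mock replicate 1 (-0.40) or 3 (-0.48), or the double mutant ATP replicate 1 (-0.51), 2 (-0.47) or 3 (-0.48). BAM1 had a difference of -0.31 ± 0.09 in the same contrast, not called by edgeR. For SWEET10 the difference was -1.17 ± 0.30, and -1.45 without replicate 1. It uses the bdg-8 response that drew attention to the gene, so it is a description with no p.

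Of the 106 pathway genes, 28 were higher and 5 lower with ATP in p2k1-3 (31.1%, with 20.4% over all genes tested), 34 and 12 in bdg-8 (43.4%, with 36.3%), 21 and 19 in the double mutant (37.7%, with 33.7%), and 23 and 2 in Col-0 (23.6%, with 21.8%). In the double mutant and Col-0 these shares were near those over all genes. The calls with replicates 1 and 2 numbered 15, 27, 20 and 15 in that order. ERD6, a sugar transporter gene of the vacuolar membrane family, rose by 0.98 ± 0.06 in p2k1-3, 2.16 ± 0.06 in bdg-8, 1.82 ± 0.06 in the double mutant and 1.56 ± 0.06 in Col-0 (edgeR adjusted p at most 1.5e-12). SUC3, a sucrose symporter, rose by 0.40 ± 0.06 in p2k1-3, 1.41 ± 0.05 in bdg-8, 1.15 ± 0.05 in the double mutant and 0.81 ± 0.06 in Col-0. HKL1, a hexokinase-like protein without catalytic activity, rose by 0.77 to 1.16 in the 4 genotypes. Within the STP family, STP1 rose by 0.90, 0.91, 1.13 and 0.60 in p2k1-3, bdg-8, the double mutant and Col-0, beside the responses of STP13 given above. The responses of ERD6, SUC3, HKL1 and STP1 were also called with replicates 1 and 2 (edgeR adjusted p at most 0.0075).

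Of the 7 sugar starvation markers, all were called higher with ATP in p2k1-3 (11.9% of all genes tested), 4 in bdg-8 (18.7%), 4 in the double mutant (17.1%) and 6 in Col-0 (13.2%). With replicates 1 and 2, 4, 3, 3 and 4 of these calls held. DIN10 and TPS8, lower in bdg-8 without ATP, were among those that rose. DIN10 rose by 1.32 ± 0.07, 1.14 ± 0.07, 0.98 ± 0.07 and 1.09 ± 0.07 in that order, and TPS8 by 1.07 ± 0.07, 1.13 ± 0.07, 1.26 ± 0.07 and 0.92 ± 0.07 (edgeR adjusted p at most 6.6e-11). BAM9, lower in bdg-8 without ATP, rose with ATP by 0.72 ± 0.08 in p2k1-3, 0.78 ± 0.09 in bdg-8, 0.94 ± 0.09 in the double mutant and 0.47 ± 0.08 in Col-0. The responses of DIN10, TPS8 and BAM9 were also called with replicates 1 and 2 (edgeR adjusted p at most 0.01). Over all genes tested, 8.53%, 17.7%, 16.5% and 8.67% were lower with ATP in p2k1-3, bdg-8, the double mutant and Col-0. Of 19 starch synthesis genes, 1, 4, 0 and 2 were higher in that order, and 1, 1, 6 and 0 were lower. Of these calls, 1 held with replicates 1 and 2, a lower one in the double mutant. None of the green tissue markers was called with ATP in p2k1-3 or Col-0, while 1 of 6 was lower in bdg-8 and 2 of 6 in the double mutant, of which 1, in the double mutant, held with replicates 1 and 2; their part in the responses was not tested.

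Across the 24 libraries, which share the 8 groups, several of the 9 genes had correlated levels. The correlations include the differences between groups, and correlation within groups was not measured. Pearson's r of log2 CPM was 0.97 between GPT2 and APL3, 0.96 between GPT2 and BAM5, 0.93 between APL3 and CT-BMY, and 0.89 between GPT2 and CT-BMY. It was 0.69 between SWEET10 and STP13 and 0.64 between BAM1 and STP13. Among all genes tested, those most like GPT2 were AT3G27230 (r = 0.984), NDPK3 (0.984) and SDH1-1 (0.981). Those most like APL3 were SEX4 (0.98), UGP1 (0.977) and ISA3 (0.974), and those most like CT-BMY were SBE2.2 (0.96), DPE2 (0.957) and ISA3 (0.954). BAM5 was most like LTP2 (0.979), BAM1 most like PME1 (0.963), STP13 most like LHT7 (0.942) and SWEET10 most like CRCK1 (0.903). The closest genes to SWEET11 and SWEET12, whose levels varied least, were HDS (0.855) and DGAT2 (0.773).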

How the data were processed

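Polyadenylated RNA of 24 libraries in 8 groups of 3 was sequenced, and the authors deposited a table of raw read counts per gene for each library. The submitters' processing notes name STAR 2.7.4a, HTSeq 0.13.5, cutadapt 1.13 and MultiQC 1.9 as software; the settings, the strand setting and the genome build of the counting are not given in the sources used here. Overlapping, antisense and closely related genes, such as the SWEET genes, are therefore uncertain. The 5 summary entries that name no gene (7.60 to 12.2% of each library's total) were left out, among them ambiguous reads (4.03 to 4.4%).

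Counts were analysed with edgeR 4.0.16 in R 4.3.3. After the default expression filter and TMM scaling (factors 0.954 to 1.07), 1 quasi-likelihood model, fitted to the 24 libraries together, had a mean for each group (16 residual degrees of freedom, median biological coefficient of variation 0.0477). Benjamini-Hochberg adjustment covered all 20995 genes tested, genes were called at an adjusted p under 0.05, and 95% intervals used the residual degrees of freedom. Standard errors came from the F statistic. DESeq2 1.42.0, relative log expression scaling, no low-count filter, the compared groups alone, a replicate block and omission of libraries were tried as alternatives.

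The 9 genes and the lists, by function, were chosen with earlier results of these data known. Named were all 9 genes in every comparison, P2K1 and BDG1, up to 4 called genes per list with the largest change, and per gene the closest of the 3 genes with the highest correlation. Gene names and promoters came from RefSeq's TAIR10.1 tables, in which 33056 identifiers were found.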

Additional observations from a re-analysis of the deposited data

Results flagged for a closer look

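The tests of differences in ATP response between genotypes called 5 values among the 8 genes other than SWEET10, each a log2 difference from edgeR over 3 libraries per group. Over all genes tested, edgeR called 7.91% in bdg-8 against Col-0 and 16.2% in the double mutant against p2k1-3. It called 0.638% in the double mutant against bdg-8 and 4.48% in p2k1-3 against Col-0. The response of BAM1 was greater in bdg-8 than in Col-0 by 0.41 and greater in the double mutant than in p2k1-3 by 0.39. In both pairs, every ATP library lay above every mock library of its genotype. The response of STP13 was greater in the double mutant than in p2k1-3 by 0.89, the only 1 of the 5 called with replicates 1 and 2 alone (edgeR adjusted p = 0.039). The response of CT-BMY was lower in the double mutant, by -0.48 against bdg-8 and by -0.44 against p2k1-3. SWEET10, which had drawn attention for its response in bdg-8 against Col-0, differed there by 2.05, on counts of 25 to 148 per library; this is a description, not a test. These contrasts share libraries with each other, and the cause of no difference was tested.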

How the results depend on the processing

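Of 108 single-gene values, 28 changed sign under at least 1 alternative, and all of them were at most 0.19 in size with 3 replicates. None was called by edgeR with 3 replicates, or under an alternative with the other sign. GPT2 with ATP in Col-0, for example, was 0.02 and reached -0.32. STP13 in bdg-8 against Col-0 without ATP was among the 28, at 0.10, and was called higher without replicate 2 (0.29). Among single-gene values, the call was the same for all 108 under relative log expression scaling and without the low-count filter, for 105 under DESeq2 and for 101 with the compared groups alone. In the double mutant against bdg-8 without ATP, the 140 genes called became 214 with DESeq2 and 57 with the compared groups alone. For the ATP response of the double mutant against bdg-8, 134 genes became 225 with DESeq2, and 1 of the 9 genes became 2. In p2k1-3 against Col-0 without ATP, 1 of the 9 genes became 3 with DESeq2 (STP13, CT-BMY and SWEET10). The cause of these shifts was not tested. Deviations from group means correlated between -0.239 and 0.393 for libraries with equal replicate numbers (medians 0.0397 to 0.101). For unequal numbers they correlated between -0.346 and 0.236 (medians -0.0494 to 0.00961). Whether a number marks a shared batch is not stated in the labels and cannot be told from these values. A replicate block left 100 of the 108 single-gene calls the same and added 8. With the replicate number as a block, 273 genes were called in the double mutant against bdg-8, 1 of the 9 genes in the ATP response of p2k1-3 against Col-0 (against 0 without the block), and 3 in that of the double mutant against bdg-8.

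With libraries left out, singly or by replicate number, genes called (and of the 9 genes) ranged as follows. For ATP they were 1883 to 4813 (0 to 3) in p2k1-3, 4852 to 7138 (3 to 4) in bdg-8, 4269 to 6536 (2 to 4) in the double mutant and 2494 to 4564 (1 to 3) in Col-0. Without ATP they were 3170 to 7491 (3 to 7) for bdg-8 against Col-0, 85 to 2135 (0 to 3) for p2k1-3 against Col-0, 2161 to 6257 (4 to 7) for the double mutant against p2k1-3 and 6 to 302 (0 to 4) for it against bdg-8. For differences in ATP response they were 149 to 1275 (0 to 1) for p2k1-3 against Col-0, 458 to 2168 (0 to 2) for bdg-8 against Col-0, 2 to 413 (0 to 2) for the double mutant against bdg-8 and 1267 to 3628 (1 to 5) for it against p2k1-3. Omission of replicate 1 ended 1 single-gene call and added 10, omission of replicate 2 ended 2 and added 8, and omission of replicate 3 ended 19 and added 0. Each leaves 2 libraries per group, and the cause of the difference was not tested. Counts of the 9 genes, here and under the other alternatives, include SWEET10. Its calls in contrasts that use bdg-8 or Col-0 are a description. Levels of SWEET10 are limited by its depth.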
